A study of Rattus norvegicus with 2 samples.

Results

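Dcn, Ogn, Lum, Fmod, Bgn, Aspn, Omd and Prelp encode small leucine-rich proteoglycans, and their RNA was compared here between a male and a female pool of rat hypothalamus. The 8 genes are all those of a short list of family members given by name. Their names stood on 18 of the 42877 non-control spots of each array, as 9 of 30367 probes and 8 of 26247 genes. The list was chosen by name with the female minus male difference in signal on these same arrays in view. Their values are therefore a description, with no test, and every count over the 8 below is one that the choice of genes had a part in.

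The animals were WKY (Wistar Kyoto) rats aged 9 weeks, an inbred strain with normal blood pressure. Whole hypothalamus was taken from 5 males and from 5 females, 100 ng RNA per rat was combined within each sex, and 150 ng of each mixture received the dye Cy3. Single-colour Agilent arrays were used, 1 per pool, so the male group and the female group had 1 sample each. The labels gave no treatment and no stage of the oestrous cycle. Both arrays lay on 1 slide and were read in 1 scan. With 1 array per sex, no p-value can be given and the spread between rats was not measured. All 10 hypothalamus markers, among them Avp, Oxt, Hcrt, Pmch and Pomc, were measured in both pools, with a median difference of 0.10 on the log2 scale.

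Small leucine-rich proteoglycans are secreted matrix proteins with a curved core of leucine-rich repeats. They bind to fibrillar collagens and influence the width and spacing of the fibrils, and several, Dcn and Bgn best known among them, also bind growth factors of the TGF-beta family. Many carry chondroitin, dermatan or keratan sulfate chains. In the brain they are known mainly from fibroblasts of the meninges and of the larger vessels, whereas the matrix around neurons is built from other proteoglycans.

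The array reads each gene through 60-base DNA probes, and the probe decides which part of the RNA is measured. Of the 36 pairs among the 9 member probes, the Dcn and Lum probes had the longest run in common, 12 bases, against a next longest of 8 and a median of 5. The capitals mark that run in both, which is shown because these genes are neighbours on chromosome 7 and their proteins are close relatives.
Dcn: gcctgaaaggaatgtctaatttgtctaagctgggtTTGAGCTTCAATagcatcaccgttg
Lum: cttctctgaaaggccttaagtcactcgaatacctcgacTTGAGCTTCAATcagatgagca
The Dcn probe aligned to chr7:35037331-35041132 of the rat build rn4, as the files give it. That span of 3802 bases for a 60-base probe crosses at least 1 intron, so the probe joins sequence of different exons. The Lum probe lay at chr7:35086409-35086468 on the plus strand.

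All 8 genes read higher in the female pool once the arrays were scaled, from 1.27-fold for Prelp to 2.46-fold for Ogn. The level of a probe is given throughout as log2 of the processed signal minus log2 of the array's 75th percentile, and a difference is the female level minus the male level. The 75th percentile was 3769 for males and 2943 for females, and this scaling added 0.36 to every difference. The median difference of the 8 was 0.61, against 0.00015 over the 20600 genes measured in both pools. Ogn, Fmod, Omd and Dcn lay at or above 1.5-fold, which is 4 of 8 genes where 1.56% of all measured genes lay that far toward the female pool. Ogn alone reached 2-fold, a size that 0.51% of all genes reached. All 8 differences were above 0, as were 50% of those of all genes, and no member reached 1.5-fold toward the male pool, where 0.845% of all genes did. With scaling on the spike-in controls all 8 stayed above 0, and Ogn and Fmod alone stayed at or above 1.5-fold. In that setting 233 of 20600 genes lay that far toward the female pool. A normexp background correction fitted on all spots, 8 of which had a background above their signal on the male array, put Lum, Bgn, Aspn, Omd and Prelp below 0. Fitted without such spots on either array, it put all 8 above 0. The fit on all spots also moved the median of all genes to -0.55. Relative to that median, Bgn stood at 0.49, Prelp at 0.14 and Omd at 0.022, while Lum stood at -1.40 and Aspn at -1.85. In whole tissue, fewer cells of a type and less RNA per cell cannot be told apart.

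**Figure D1:**
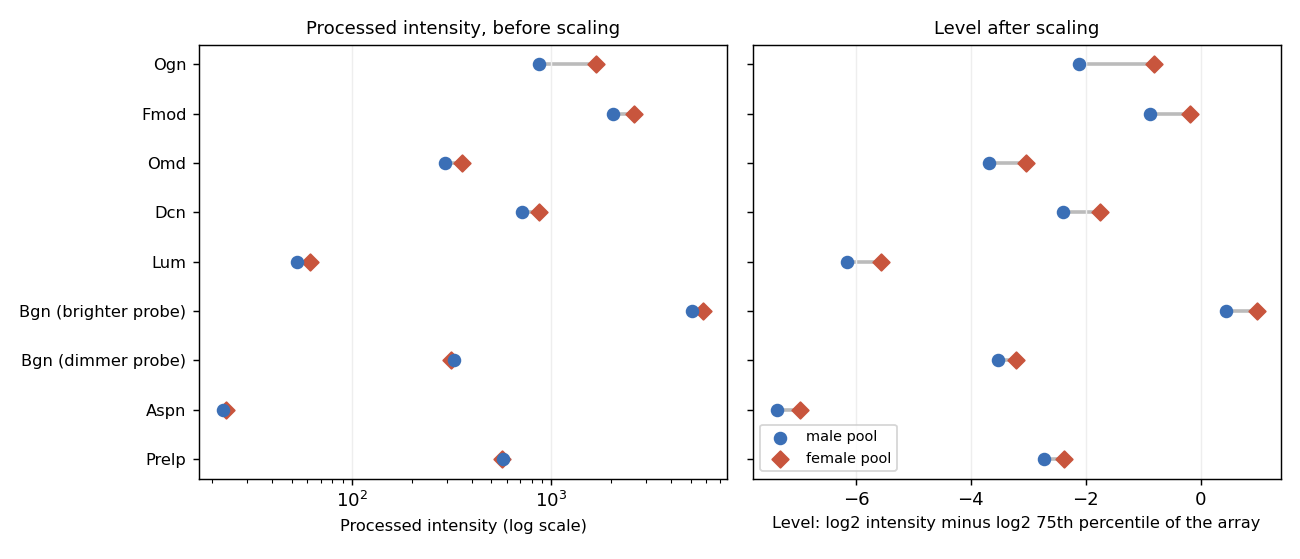
Processed intensity of each member probe before scaling (left, log axis) and its level after scaling (right, log2 relative to the 75th percentile), with circles for the male pool, diamonds for the female pool and the mean of 8 spots for Dcn. On the left the symbols of Prelp, Aspn and the dimmer Bgn probe nearly coincide, and on the right every diamond lies to the right of its circle.

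Decorin, Dcn, is the family member that binds collagen I fibrils and TGF-beta, and it was the best measured of the 8. The arrays carried its probe on 10 spots, of which 8 were free of outlier flags on both arrays. Over those 8 spots the processed signal ran in the males from 668 through a median of 716 to 755. On the female array it ran from 826 through 863 to 923. In the processed signal, before scaling to the percentile, every female spot was thus brighter than every male spot. In the mean signal, before the software's processing, the 2 ranges overlapped. There the male spot in row 342 read 945 and the female spot in row 294 read 939. The scaled difference was 0.64 ± 0.043 (SD, n = 8 spots), with single spots between 0.59 and 0.73, or 1.56-fold. These spots read the same labelled RNA, so the SD covers the array and not the rats. The 2 spots with an outlier flag gave 0.72 and 0.24, and in the latter the male signal, 869, was above the female signal, 803. Over all 10 spots the difference was 0.61 ± 0.14 (SD).

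For probes printed once, the error given is the technical SD, the SD of the difference among repeated spots of like brightness in the same kind of slide region. Osteoglycin, Ogn, also called mimecan, is a small family member found in the matrix of many connective tissues. Its single spot read 870 for males and 1672 for females, the largest ratio of the 8. The levels were -2.11 and -0.82, and the difference was 1.30 with a technical SD of 0.054. It was the highest by a gap of 0.59 to the next, Fmod, which is 6.03 times the error of that gap by the technical SDs. The scanner software's own error was larger, 0.20 for the spot pair of Ogn and 0.20 for that of Fmod. The gap was not set against it. Unscaled, the female spot was still 1.92-fold brighter.

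Fibromodulin, Fmod, binds collagen fibrils and carries keratan sulfate. Its spot read 2037 for males and 2599 for females. The difference of the scaled levels, -0.89 and -0.18, was 0.71 with a technical SD of 0.082, or 1.63-fold. Lumican, Lum, shares a collagen binding region with Fmod and is best known from the cornea. Its signal was 53.0 for males and 62.0 for females, with levels of -6.15 and -5.57. Its difference of 0.58, with a technical SD of 0.20, placed it just below the 1.5-fold line, while Dcn, at 0.64, was the member just above it. The scanner software's error for the spot pair of Lum was 0.24. Osteomodulin, Omd, a keratan sulfate proteoglycan first known from bone, read 293 and 357. Its levels of -3.69 and -3.04 differed by 0.64 with a technical SD of 0.20. Fmod, Lum and Omd were thus all brighter in the female pool before scaling, by 0.35, 0.22 and 0.29 on the log2 scale.

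Biglycan, Bgn, the closest relative of decorin and encoded on the X chromosome, had 2 probes, which gave unlike values. Both lie in the same transcript, 1137 bases apart. The brighter one, at chrX:159393349-159393408 of rn4, read 5082 for males and 5761 for females, a scaled difference of 0.54 with a technical SD of 0.082. The dimmer one, at chrX:159392152-159392211, read 326 for males and 315 for females. Its scaled difference was 0.31, with a technical SD of 0.13 and a scanner software error of 0.20. Unscaled, the first was higher in the female pool by 0.18 and the other stood at -0.049, slightly lower there. The gap between the probes was 0.23 with an error of 0.15. Their mean, used for the gene, was 0.42, or 1.34-fold. The dimmer probe is shown because it ends on the last codon of the reading frame, and the capitals mark that stop triplet.
Bgn, dimmer probe: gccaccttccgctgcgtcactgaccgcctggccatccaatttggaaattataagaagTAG

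Asporin, Aspn, is a relative of decorin with a stretch of aspartates, and Prelp is a member that anchors basement membranes to connective tissue. Aspn was called above background on both arrays, at 22.7 for males and 23.4 for females. Its difference of 0.40 was 1.32-fold, with a technical SD of 0.13, and the scanner software's own error for that spot pair was 0.34. Prelp read 571 and 567, and its levels of -2.72 and -2.38 differed by 0.35. Its technical SD was 0.13 and its scanner software error 0.20. Before scaling, Aspn differed by 0.047 and Prelp by -0.011. Nearly all of the Aspn difference and all of the Prelp difference is thus the 0.36 that scaling added to every gene. In the mean signal, before the software's processing, Prelp read 566 for males and 584 for females.

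In order of the difference the genes ran Ogn, Fmod, Omd, Dcn, Lum, Bgn, Aspn and Prelp. Only the first step exceeded its error, taken from the technical SDs and, for Dcn, the SD over spots. The other 6 gaps between neighbours lay between 0.0029 and 0.16, each below its own error of 0.15 to 0.21.

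**Figure D2:**
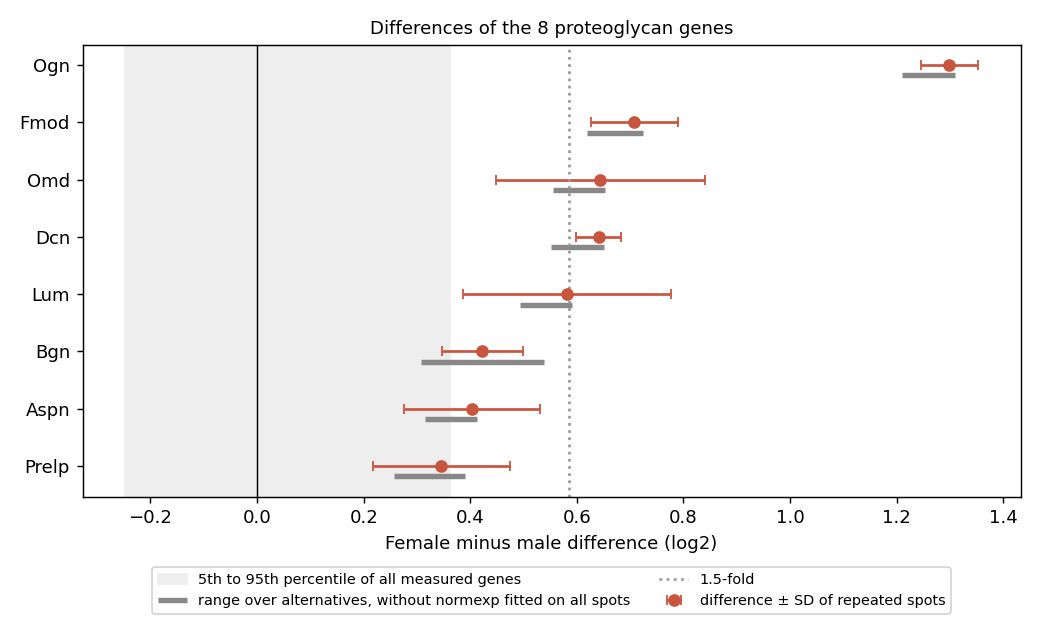
Female minus male difference of each member gene on the log2 scale, with error bars of the SD over 8 spots for Dcn and the technical SD for the others. Thick grey lines give the range over the processing alternatives without normexp fitted on all spots, shading spans the 5th to 95th percentile of all measured genes (-0.25 to 0.36), and Ogn at 1.30 stands apart from the other 7. Several of the alternatives could not change the value of a gene with 1 spot.

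Bands of the slide were marked where repeated spots often departed from their probe's median, as the blocks of 20 rows in which over 3% did so. By that definition the share is higher inside them. In slide rows 81 to 180 and 401 to 460, 247 of 3947 repeated spots (6.26%) departed by more than 4 robust SDs, against 92 of 9122 (1.01%) elsewhere. The single spots of Fmod (row 450), Lum (row 415) and Omd (row 159) and the brighter Bgn probe (row 135) lay in these bands. Ogn (row 493), Aspn (row 245), Prelp (row 61) and the dimmer Bgn probe (row 214) lay outside them. The 7 Dcn spots outside the bands gave 0.63 ± 0.028 (SD) and the 1 inside gave 0.73. Without the bands, 5 members kept a value, with a median of 0.40, and 2 of the 5, Dcn and Ogn, stayed at or above 1.5-fold. In that setting 148 of 15220 genes lay that far toward the female pool. Whether the bands had a part in the values of Fmod, Lum and Omd was not tested, since each had no spot elsewhere.

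**Figure D3:**
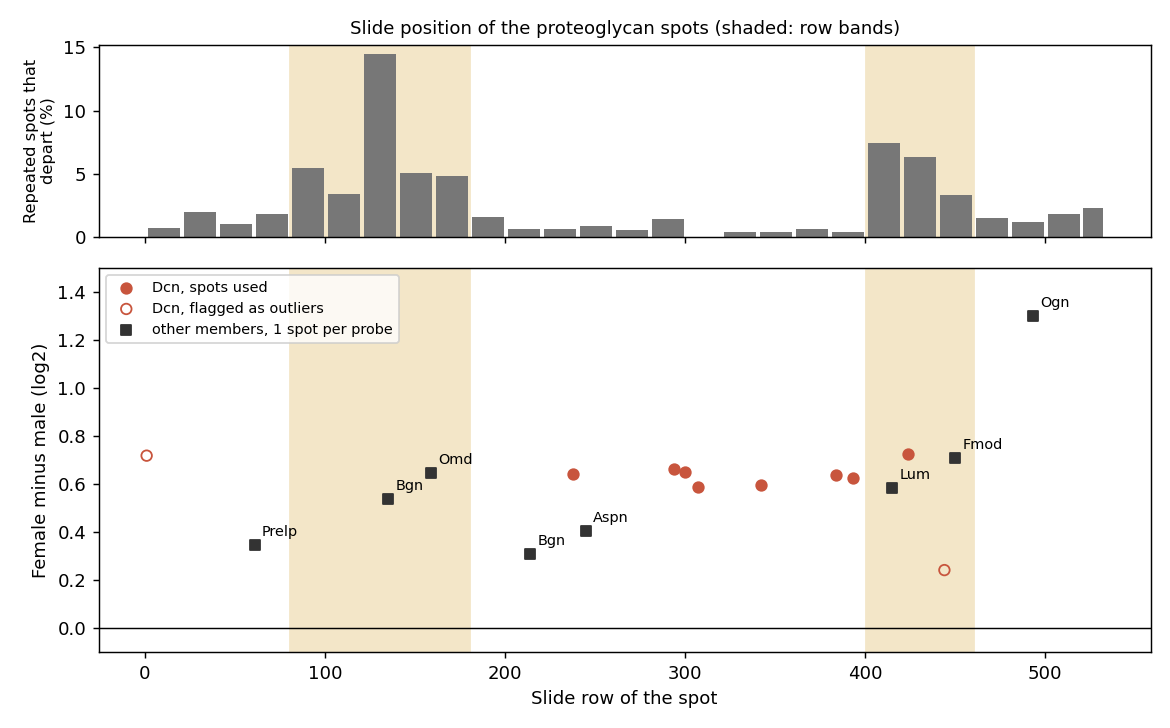
The upper panel gives the percent of repeated spots that depart by more than 4 robust SDs in each block of 20 slide rows, and the lower panel the female minus male difference (log2) of each member spot against its row, with the bands shaded and open circles for Dcn spots with an outlier flag. The Dcn spots in use outside the bands lie near 0.63, and Ogn, outside the bands too, is the highest spot.

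The probes placed the family in groups of neighbours, and genes within a group differed in size. On chromosome 17 of rn4, Ogn, Omd and Aspn probes lay within 48.681 kb, all on the minus strand, and differed by 1.30, 0.64 and 0.40. On chromosome 7, Dcn and Lum, at 0.64 and 0.58, lay within 160.561 kb of Kera and Epyc. Kera did not rise well above background on either array, and Epyc, which makes epiphycan of cartilage, stood at -0.16. On chromosome 13, Fmod and Prelp, at 0.71 and 0.35, lay within 142.331 kb of Optc, which makes opticin of the eye and stood at 0.081. Epyc and Optc, though neighbours of members, thus lay near the median of all genes or below it.

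Of the family genes outside the 8, 5 were measured, and none of these reached 1.5-fold in either direction. Of all measured genes, 1.56% reached it toward the female pool and 0.845% toward the male pool. Beside Epyc and Optc, the 5 included Chad (-0.060), Tsku (-0.053) and Nyx (0.023), and the median of the 5 was -0.053. The spots of Optc and Chad lay inside the slide bands. Tsku, which makes tsukushi, read 805 for males and 606 for females before scaling. Podnl1, like Kera, was near background on both arrays.

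The Ogn probe, at chr17:20987215-20987274, and the Fmod probe, at chr13:46998263-46998322, both lie far along their transcripts, from base 2404 and base 2875. Their last 30 bases are shown because these are the genes with the largest differences, and because the Fmod probe holds the polyadenylation signal AATAAA, in capitals.
Ogn: tttgttcgcaggcctcattttctctgactg
Fmod: ggtggccaacctgaccAATAAAgttatttt
Promoter sequence for 5 members (Ogn, Lum, Fmod, Aspn and Omd) came from RefSeq on the build GRCr8. In the 250 bases before the start, both strands were searched for 5 motifs, and no motif is part of another. Among 33469 promoters, TATAAA (the TATA box) was held by 12.93%, GGGCGG (the GC box) by 30.47% and CCAAT by 34.02%. The AP-1 site TGACTCA was held by 4.046%, and the forkhead site GTAAACA by 3.215%. TATAAA stood in Ogn alone of the 5, as overlapping matches on the 2 strands that begin 222 and 224 bases before the start. GGGCGG stood in Fmod, 85 bases before the start. CCAAT stood in Fmod, 247 bases before the start, and on the opposite strand in Lum, 130 bases before it. The AP-1 and forkhead sites stood in none of the 5. The promoters of Ogn, at chr17:15258996-15259245 on the minus strand, and Fmod, at chr13:48045317-48045566 on the plus strand, follow with the matches in capitals.
Ogn promoter: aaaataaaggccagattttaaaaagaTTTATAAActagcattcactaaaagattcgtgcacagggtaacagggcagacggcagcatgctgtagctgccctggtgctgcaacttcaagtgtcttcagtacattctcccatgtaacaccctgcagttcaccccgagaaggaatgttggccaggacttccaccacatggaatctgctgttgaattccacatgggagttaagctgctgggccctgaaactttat
Fmod promoter: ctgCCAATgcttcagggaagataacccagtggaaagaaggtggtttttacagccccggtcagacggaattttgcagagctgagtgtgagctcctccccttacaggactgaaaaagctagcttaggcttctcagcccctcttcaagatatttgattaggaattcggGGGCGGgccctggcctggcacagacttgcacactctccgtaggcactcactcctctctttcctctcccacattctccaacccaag
A match says that these letters are present and not that a factor binds there.

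Collagens that these proteins bind had a median difference of 0.24, with single chains from -0.31 to 1.04. Of 11 chains listed, 8 were measured, 7 lay above 0 (50% of all measured genes did) and 2 reached 2-fold (0.51% of all did). Col1a2, a chain of the collagen I fibril, went from a level of -0.33 to 0.71, a difference of 1.04. Col3a1, of the thinner collagen III fibrils, differed by 1.01 and Col1a1, the other chain of collagen I, by 0.54. Col6a2, of the beaded collagen VI, differed by 0.30. Col14a1, a collagen that sits on fibril surfaces, stood at -0.31. The other chains, Col2a1 at 0.025, Col5a2 at 0.056 and Col5a1 at 0.19, lay closer to the median of all genes. The spots of Col1a2, Col3a1, Col1a1 and Col6a2 all lay outside the slide bands.

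Of 18 measured genes that mature or degrade collagen, 14 lay above 0 and 3 reached 1.5-fold, against 50% and 1.56% of all genes, with a median of 0.16. The largest differences were 0.84 for Timp3, an inhibitor of matrix proteases bound to the matrix, and 0.72 for Loxl2, a collagen crosslinking enzyme. Of 25 measured enzymes that build glycosaminoglycan chains, 15 lay above 0 and 1 reached 1.5-fold, against the same 50% and 1.56%, with a median of 0.033. That gene, Chsy3, a chondroitin sulfate polymerase, stood at 1.23 on a spot inside a band, and the sulfotransferase Chst11 at -0.54, likewise inside one. Growth factors and receptors that members can bind had a median of 0.010 over 19 genes. Of these 1, Bmp6 at 0.60, was past 1.5-fold (1.56% of all genes were), on a spot inside a band with a technical SD of 0.20. Bmp2 stood at 0.46, outside the bands. Proteoglycans of the matrix around neurons and their partners had a median of -0.026 over 12 genes. Acan (aggrecan) stood at -0.43, inside a band, and Tnc (tenascin-C) at 0.17, outside. Heparan sulfate proteoglycans had a median of -0.026 over 11 genes, and their largest differences were 0.33 for Gpc6 and 0.27 for Gpc3. No gene of these 2 lists reached 1.5-fold. Of all genes, 1.56% lay that far toward the female pool and 0.845% toward the male pool.

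Markers of meningeal cells and fibroblasts that are no members also read mostly higher in the female pool. This list and the other lists were chosen with earlier results of these data known, so their counts are a description and no separate support. Of 28 listed, 23 were measured and 21 lay above 0, where 50% of all measured genes did. Of the 23, 13 reached 1.5-fold (1.56% of all measured genes did) and 6 reached 2-fold (0.51% did), with a median of 0.61. Their levels summed to 1291% of the 75th percentile for males and 1715% for females. Without Igf2, which changed most and lay inside a band, the sums were 1072% and 1268%. These sums and those of other lists below add signals of probes that may bind their RNA unequally. Bright probes weigh most in them, so they do not measure the amount of RNA of a list. The largest differences were those of Aldh1a2, which makes retinoic acid (1.92), the transporters Slc47a1 (1.39), Slc22a6 (1.34) and Slc6a13 (1.17), and the transcription factor Foxc2 (1.36). Aldh1a2, Slc47a1 and Slc22a6 lay inside the slide bands and Foxc2 and Slc6a13 outside. Slc13a4 stood clear of background in females alone and was at least 2.86-fold higher in them, the bound being the lowest signal called above background on the male array. Dpt and Postn were well above background in neither pool. Against this direction, Aldh1a1 stood at -0.58. Without the bands the list's median was 0.52. How much meningeal tissue each pool held, and its part in the members' values, was not tested.

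Other cell types gave smaller medians. Choroid plexus markers were measured for 13 of 14 genes, and 8 lay above 0, where 50% of all measured genes did. Their sum went from 564% to 661% of the 75th percentile. Ttr (transthyretin) carried that change, and without it the sum went from 456% to 448%. Among these Kcnj13 stood at 2.22 and Ttr at 0.98, both inside bands, and the median was 0.15. Medians were -0.069 for endothelial cells (12 genes), -0.030 for mural cells (13), 0.039 for astrocytes (10), 0.073 for microglia and macrophages (13), -0.094 for oligodendrocytes (12) and 0.042 for neurons (11). Endothelial and mural markers, from the vessel wall, had no gene at 1.5-fold. Of all measured genes, 1.56% lay that far toward the female pool and 0.845% toward the male pool. The endothelial receptor Tie1 stood at -0.27 and Egfl7 at -0.16, and the smooth muscle gene Cnn1 stood at 0.53 and Abcc9 at 0.50. All of these were read on spots inside the bands. The 2 largest differences in the other lists were Sox9 (0.29) and Gfap (-0.24) of astrocytes, Cd68 (0.59) and Cx3cr1 (0.46) of microglia, Gjb1 (-0.26) and Cldn11 (-0.21) of oligodendrocytes, and Nefm (-0.12) and Map2 (0.088) of neurons. Among hypothalamus markers they were Crh (0.41) and Agrp (-0.30). Gjb1 and Agrp lay inside bands, and Sox9, Gfap, Nefm and Crh had part of their spots there.

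Blood cell markers lay the other way, while pituitary markers were mixed. All 7 measured blood cell markers lay below 0, with a median of -0.46, where 50% of all measured genes lay above 0. Their sum went from 1332% for males to 1067% for females, mostly through Hbb. Without Hbb it went from 95.4% to 66.5%. S100a8, of neutrophils, stood at -1.27 inside a band and Ahsp, of red cells, at -0.57. Of 7 measured anterior pituitary markers 5 lay below 0, against the same 50% of all genes above it. Their median of -0.12 became -0.022 without the bands or without the filter on dim spots. Fshb, at 0.18, and Pitx1, at 0.092, lay above 0. Tshb stood at -2.05 outside the bands and Cga at -0.72 inside one. Prl stood clear of background in females alone and was at least 4.74-fold higher in them. The sums for the pituitary list were 340% and 225%. The part of blood and pituitary RNA in the members' values was not tested.

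**Figure D4:**
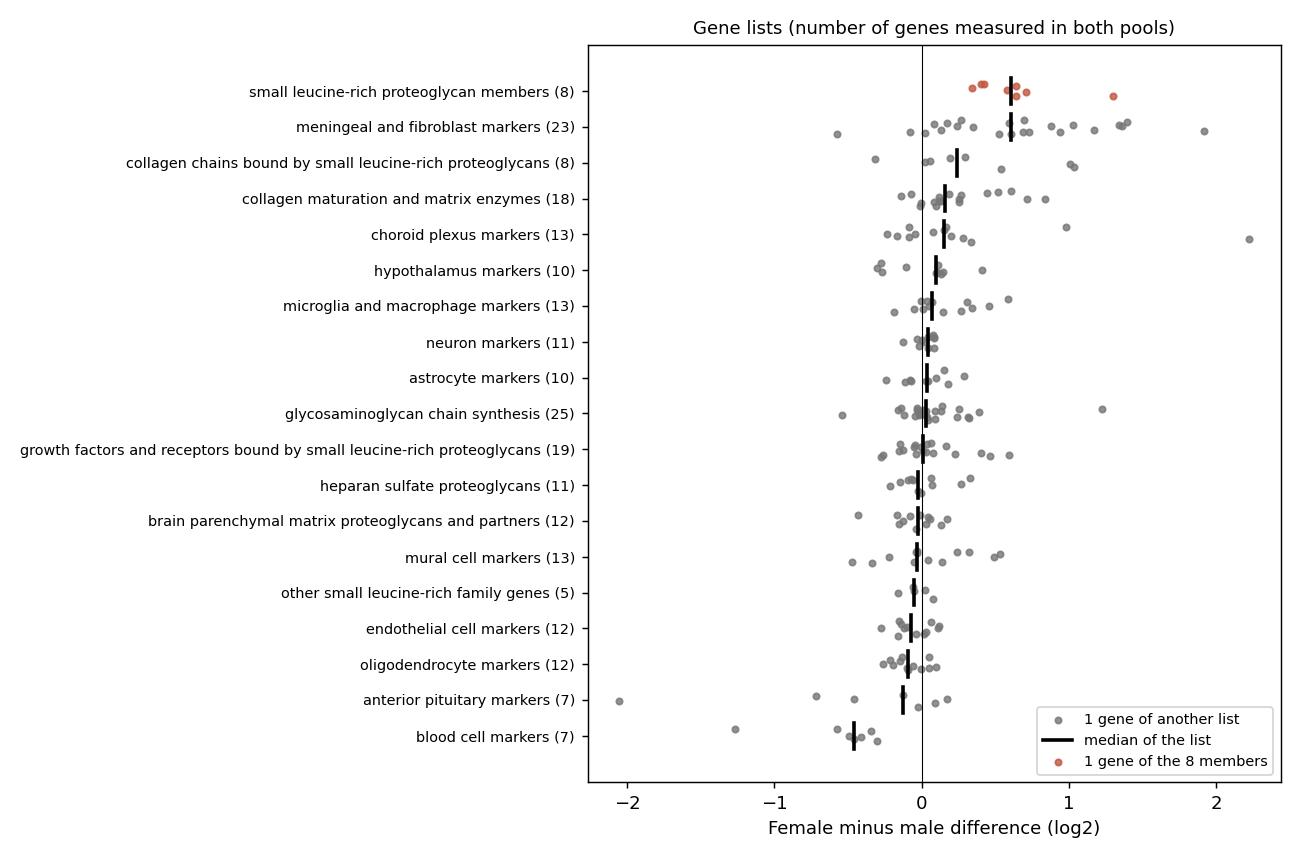
Female minus male difference of the measured genes of each list on the log2 scale, 1 point per gene, with the median of each list marked. The medians of the members and of the meningeal and fibroblast markers are both 0.61, and the blood cell markers have a median of -0.46.

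The genes most like Dcn were sought by the distance between the levels of both pools. Among 1279 genes with at least 5 measured spots and outside all lists, those near Dcn included Sh3kbp1, at a distance of 0.27, and Plcg1, at 0.30. Their differences were 0.26 ± 0.083 (SD, n = 10 spots) and 0.22 ± 0.052 (n = 10), both below that of Dcn. Of 1312 repeated probes, 9 (0.686%) reached 1.5-fold toward the female pool.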

How the data were processed

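RNA pools of male and female rat hypothalamus were measured on 1 Agilent 1-colour array each. The deposited scanner files hold the processed signal, an intensity from which the scanner software had subtracted background, per the file headers. Subtraction was not its only step, since some processed signals exceed the mean signal of their spot. The Ogn spot of the male array, for example, had a processed signal of 870 and a mean of 805. Signals called unscaled or before scaling are this processed signal. The headers name Agilent Feature Extraction 10.7.3.1 and the probe build rn4, while the submitters' processing notes name version 9.1. The authors' deposited value table also holds an intensity, for 36348 features, with medians of 29.0 (male) and 29.5 (female). Set against the scanner values, it is linear, runs in the same direction, is scaled to 100 at each array's 75th percentile and is not centred by gene.

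The level was log2 of the processed signal minus log2 of the 75th percentile over non-control spots. Control spots and spots with an outlier flag were left out, and no spot was saturated. A probe counted as measured when the scanner software called over 50% of its spots clear of background on each array. The software called 84.9% of male and 84.2% of female spots so. Spots were averaged within a probe and probes within a gene. Of 30367 probes, 19711 were named through their accession, 1709 by symbol and 173 by synonym in a RefSeq table (assembly GRCr8, names only), and 8774 kept the name in the file. The technical SD came from repeated spots in 4 groups of signal, inside and outside the slide bands. Blocks of 20 slide rows in which over 3% of repeated spots departed by more than 4 robust SDs made up the bands.

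The members and the 18 other gene lists were chosen with earlier results of these data known. The genes named are all members, all other family genes on the arrays, the 5 largest differences in the collagen and the meningeal lists, the 2 largest in every other list, and the 3 genes most like Dcn, of which 1 is not reported here. Aldh1a1, Hbb, Igf2, Fshb, Pitx1, the remaining collagen chains, the other hypothalamus markers and the genes measured in 1 pool or in neither were named after their values were seen. No test was possible with 1 array per group, and the number of arrays limits the precision. In all, 12 alternatives were run, 11 planned and 1 added after seeing the data. Protein sequences were not used here. The scaling and the averaging into genes were tested on simulated data with known differences and the same noise at every level. The slide bands, the technical SD, normexp and the list values were not tested in this way. Tools were Python 3.11.15 with numpy 2.4.6 and pandas 2.3.3, R 4.3.3 with limma 3.58.1, and matplotlib 3.10.9.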

Additional observations from a re-analysis of the deposited data

How the results depend on the processing

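Under the alternatives other than normexp fitted on all spots, every member stayed above 0: Dcn between 0.55 and 0.65, Ogn 1.21 and 1.31, Lum 0.49 and 0.59, Fmod 0.62 and 0.72, Bgn 0.31 and 0.54, Aspn 0.31 and 0.41, Omd 0.55 and 0.65, and Prelp 0.26 and 0.39. Planned normexp on all spots took in 8 male spots whose background exceeded their signal, and its fitted male mean was -594.6, against 0.1846 without them. It gave 0.050 for Dcn, 0.72 for Ogn, 0.55 for Fmod, -0.061 for Bgn, -1.96 for Lum, -2.40 for Aspn, -0.53 for Omd and -0.41 for Prelp, a members' median of -0.23 and 1 member at 1.5-fold. Its median over all genes was -0.55. Its all-gene counts were 48 female and 10058 male at 1.5-fold, and 9 and 7783 at 2-fold. List medians became -0.12 (collagens), -0.26 (collagen maturation), -0.60 (meningeal), -1.54 (choroid plexus), 0.0093 (oligodendrocyte) and -0.084 (hypothalamus). Refitted without those and 2 such female spots, added after seeing the data, it gave 179 and 37, and 42 and 7, and list medians of 0.25 (choroid plexus), -0.30 (blood), -0.016 (pituitary) and 0.12 (growth factors). Spike-in scaling shifted the median of all genes to -0.089, gave Dcn 0.55, Ogn 1.21, Fmod 0.62, Bgn 0.33 and 2 members at 1.5-fold, and split the calls 233 to 250. The female share of the 1.5-fold calls, 64.8%, was 48.2% with spike-ins, 79.1% without the bands and 82.9% with the refit. No filter on dim spots gave 1196 and 872, and 546 and 457, and -0.022 for the pituitary list, as did leaving out the bands. Leaving out the bands gave 148 and 39, and 31 and 4, a Bgn value of 0.31, a members' median of 0.40 and 2 members at 1.5-fold, with no value for Fmod, Lum or Omd. The brightest probe gave 0.54 for Bgn and -0.032 for the hypothalamus list. The cause of these shifts was not tested, beyond the spots named. No paired analysis was possible because each group held 1 array.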
